A study of Homo sapiens with 105 samples.

Results

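The genes described here are the targets and partners of ATF4, the transcription factor at the centre of the integrated stress response, measured in vaginal epithelial cells after 6 h with 7 compounds. They are 42 named genes: ATF4 itself, factors that act with it, genes that feed back on the response, and genes for the synthesis, transport and charging of amino acids. The members were listed by gene name, with earlier results of these data known. Of the 42, 41 had a probeset that names the gene alone, since MARS had none. Each gene was read from its brightest such probeset among the 54613 non-control probesets tested.

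All arrays measured bulk RNA of Vk2/E6E7, a single line of human vaginal epithelial cells immortalized with the E6 and E7 genes of a papillomavirus, so every group shares that background and no other donor or line was used. Untreated cells in growth medium (GM) gave 53 arrays. The pro-inflammatory compounds were TNF-α at 40 ng/ml (5 arrays), the lipopeptides Pam3CSK4 at 10 μg/ml and MALP2 at 200 ng/ml (6 arrays each), imiquimod (6 arrays, 30 mg/ml in the labels and 30 μg/ml in the methods) and the detergent nonoxynol-9, N-9, at 12.5 μg/ml (9 arrays). The non-inflammatory compounds were the cellulose gels HEC and CMC at 1 mg/ml (9 arrays each). These counts leave out 2 deposited arrays: TNF-α replicate 6, which equals the mean of replicates 1 to 3 to within 7.67e-09, and GM replicate 52, whose values correlate with no other array above r = 0.0493, whereas all other pairs reach at least 0.836.

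Cells that run short of amino acids, misfold proteins in the endoplasmic reticulum (ER), carry viral RNA or lack heme phosphorylate the initiation factor eIF2. Most translation then slows, while the messenger RNA of ATF4 is translated more, and ATF4 turns on genes for amino acid supply, redox balance and its own feedback. ATF4 pairs with C/EBP proteins at a composite site, and its target DDIT3 (CHOP) is a factor best known from prolonged ER stress.

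The composite site is shown as background on the factor and not as a result of these arrays. The core TGATGNAA, in which N is any base, was searched on both strands (TTNCATCA is the same core read from the other strand) between 250 bases before and 50 bases after each start in RefSeq promoters of GRCh38.p14. Of the 42 genes 35 had an entry, and 12 of these held the core, a share of 34.3% against 4.46% of all 27305 genes with entries. Before the start the core lay in 7 members, or 20.0%, against 3.89% of all genes. These 7 windows are printed 5′ to 3′ on the strand of the gene, with the core in capitals.
ATF3 (chr1:212565205-212565234, plus strand): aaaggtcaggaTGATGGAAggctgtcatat
CEBPG (chr19:33374060-33374089, plus strand): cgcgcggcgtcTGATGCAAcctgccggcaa
JDP2 (chr14:75427995-75428021, plus strand): atagccggggcTGATGCAAcccgtccc
CHAC1 (chr15:40953251-40953280, plus strand): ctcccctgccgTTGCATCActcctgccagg
ASNS (chr7:97872458-97872487, minus strand): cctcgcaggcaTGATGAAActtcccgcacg
AARS (chr16:70289675-70289704, minus strand): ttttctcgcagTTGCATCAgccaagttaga
GARS (chr7:30594834-30594863, plus strand): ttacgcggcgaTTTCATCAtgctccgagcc
The core began 191 bases before the start in ATF3, 209 in CHAC1, 187 in AARS, 68 in ASNS, 42 in CEBPG, 33 in GARS and 16 in JDP2. ATF3, CEBPG, JDP2 and ASNS held it on the strand of the gene, and CHAC1, AARS and GARS on the opposite one. In CEBPG, JDP2 and GARS, which have several listed starts, the core did not lie before every one of them. A match describes these letters and does not show binding. The members were named as targets and partners of ATF4, so their higher share can follow from that choice alone. The 35 members had 55 listed starts, and the 27305 genes had 35116, so more sequence was searched per member.

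Levels are log2 values of 1 probeset after quantile normalization, and a gene was called where its adjusted p in limma fell under 0.05. The p-values measure the spread between arrays, which the labels call biological replicates without saying that each was a separate culture, so that spread may be technical. In bulk RNA, fewer cells of a type and less RNA per cell cannot be told apart. Of 10 markers of squamous epithelium 8 were measured, with mean levels from 9.56 for KRT13 to 14.72 for KRT14, and their summed level lay between 16.55 and 17.08 in GM, between 16.76 and 16.84 with imiquimod and between 16.65 and 16.82 with N-9. Of these 8, KRT19 was lower with imiquimod (−0.60) and with N-9 (−0.40), and DSP was higher with imiquimod (0.31), all called. The summed level of 6 measured leukocyte markers lay between 8.40 and 10.44 in GM, between 8.56 and 9.36 with imiquimod and between 8.26 and 10.31 with N-9. Their mean levels ran from 4.38 for PTPRC, which marks all leukocytes, to 7.50 for CD79A. Of the 6, CD14 was called lower with imiquimod (−1.59) and CD2 higher with N-9 (0.52). For 7 markers of fibroblasts and endothelium the sums were 10.04 to 12.39, 11.05 to 11.64 and 10.33 to 10.88, and for 4 markers of melanocytes 7.21 to 8.97, 8.04 to 8.67 and 7.34 to 8.78. As a measure of RNA integrity, the level of ACTB read at its 3′ end minus that at its 5′ end was 0.96 ± 0.52 (SD, n = 6) with imiquimod, 0.33 ± 0.08 (n = 9) with N-9 and 0.44 ± 0.24 (n = 53) in GM, and its part in the imiquimod results was not tested. Arrays with neighbouring replicate numbers resembled each other, and GM replicates 22 to 24 stood above the other GM arrays in many members. Some calls were lost when such a run of 3 was left out, and these losses are given with the genes.

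Many members rose with N-9 and with imiquimod, 9 fell and 2 rose with MALP2, 1 fell with HEC, and TNF-α, Pam3CSK4 and CMC gave no call. With N-9, 24 of 41 members (58.5%) were called, all of them higher, where 17.4% of all probesets were called and 7.34% were higher. With imiquimod, 19 (46.3%) were called, again all higher, where 10.9% of all probesets were called and 4.68% were higher. The members are brighter than most probesets, with 40 of 41 above the median, and among the 27306 probesets above it 11.0% were called higher with N-9 and 8.02% with imiquimod. The median difference from GM over the members was 0.54 with N-9 and 0.61 with imiquimod on the log2 scale. Both treatments were compared with the same GM arrays. With a fold change over 2 required as well, 13 members stayed called with N-9 and 12 with imiquimod, where 4.35% and 3.43% of all probesets did. Every array lay above every GM array for 6 members with N-9 and 5 with imiquimod, where 0.163% and 0.635% of all probesets had this separation.

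**Figure D1:**
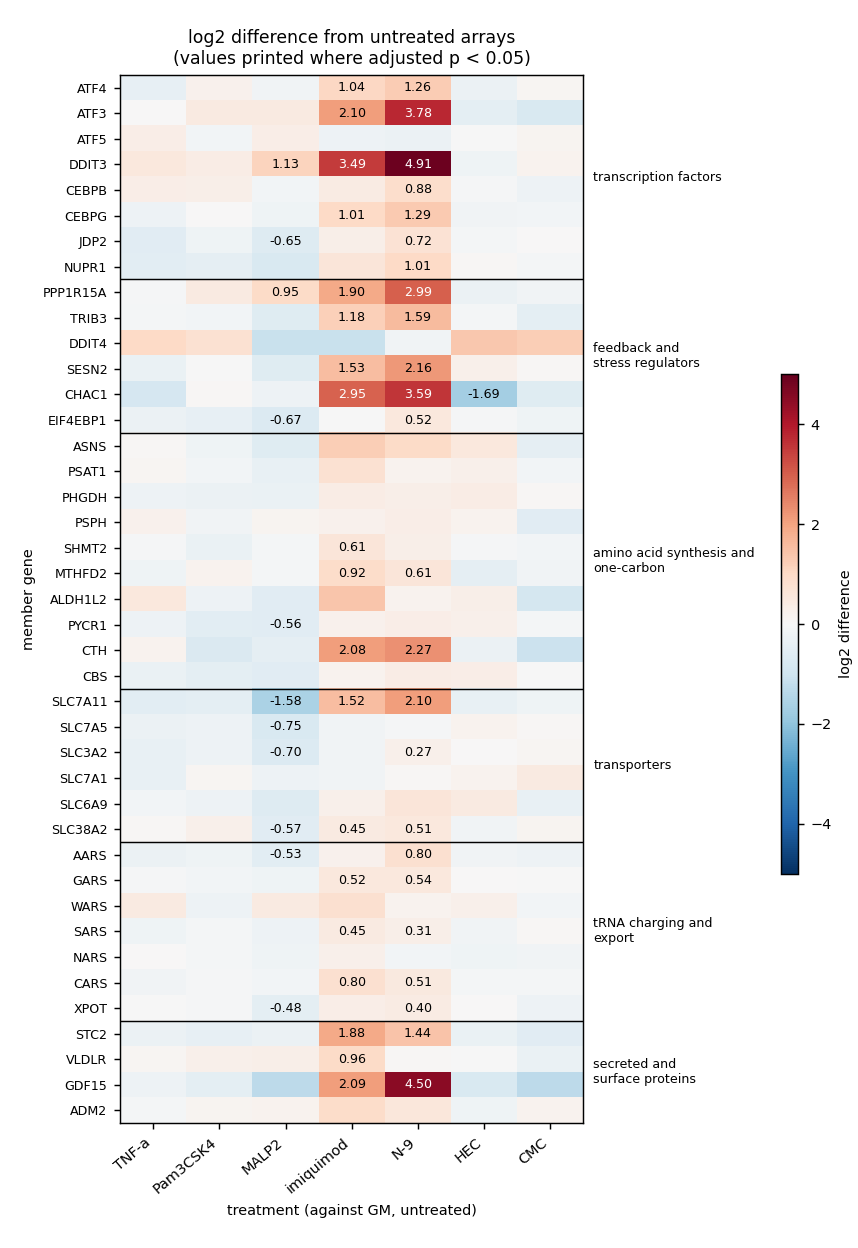
Log2 difference from GM of the 41 members (rows, ordered by role) in the 7 treatments (columns), with called differences marked. The N-9 and imiquimod columns hold 24 and 19 members called higher and none lower, and the MALP2 column holds 2 called higher and 9 lower.

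ATF4 messenger RNA itself rose with both compounds. In GM it lay at 10.94, 12.75 and 13.49 (lowest, median and highest array), with imiquimod at 13.30, 13.60 and 13.96, and with N-9 at 13.41, 13.96 and 14.17. Of the treated arrays 3 of 6 with imiquimod and 7 of 9 with N-9 lay above every GM array. The difference was 1.26 ± 0.20 (SE) with N-9 (adjusted p = 3.14e-07) and 1.04 ± 0.23 with imiquimod (adjusted p = 0.000724). Without imiquimod replicates 1 to 3 the latter was 0.76 and no longer called (adjusted p = 0.218).

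Among the factors that act with ATF4, 7 of 8 members of the transcription factor list were called with N-9, all but ATF5, and 4 with imiquimod. Of all probesets 17.4% and 10.9% were called. DDIT3, which encodes CHOP, lay at 5.16, 8.09 and 9.40 in GM, at 11.38, 11.54 and 11.63 with imiquimod and at 12.17, 12.99 and 13.66 with N-9. Every array of both compounds lay above every GM array, and every N-9 array above every imiquimod array. The difference from GM was 4.91 ± 0.20 with N-9 (adjusted p = 1.04e-38) and 3.49 ± 0.24 with imiquimod (adjusted p = 2.24e-22).

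ATF3, a stress-induced factor that can repress ATF4 targets, lay at 6.46, 8.01 and 9.80 in GM, at 9.87, 10.16 and 10.29 with imiquimod and at 10.04, 10.68 and 14.37 with N-9. Neither group overlapped GM, and N-9 replicates 4 to 6, at 14.22, 14.27 and 14.37, stood far above the other N-9 arrays, which reached 11.01 at most. ATF3 rose by 3.78 ± 0.29 with N-9 (adjusted p = 4.82e-20) and by 2.10 ± 0.34 with imiquimod (adjusted p = 1.50e-06). Without N-9 replicates 4 to 6 the N-9 difference was 2.55 (adjusted p = 2.49e-13). The other ATF3 probesets rose by 1.94 and 2.60 with N-9, and both were called, whereas with imiquimod they gave 0.27 (adjusted p = 0.814) and 0.60 (adjusted p = 0.205).

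CEBPG, a C/EBP protein that dimerizes with ATF4, lay at 9.98, 10.46 and 11.70 in GM, at 11.34, 11.54 and 11.69 with imiquimod and at 11.17, 11.88 and 12.32 with N-9, so that both groups overlapped the highest GM arrays. It rose by 1.29 ± 0.12 with N-9 (adjusted p = 7.35e-16) and by 1.01 ± 0.14 with imiquimod (adjusted p = 2.53e-08). CEBPB, another C/EBP protein, rose by 0.88 with N-9 (adjusted p = 8.04e-09), JDP2, a bZIP repressor, by 0.72 (adjusted p = 0.000166) and NUPR1, a small stress-induced chromatin protein, by 1.01 (adjusted p = 0.00259). NUPR1 was not called without N-9 replicates 1 to 3 (0.71, adjusted p = 0.125), and against GM replicates 1 to 9 alone neither JDP2 (0.54, adjusted p = 0.0698) nor NUPR1 (0.77, adjusted p = 0.0729) was called. CEBPB gave 0.41 with imiquimod (adjusted p = 0.0505), and ATF5, a relative of ATF4, gave −0.30 with N-9 without a call.

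**Figure D2:**
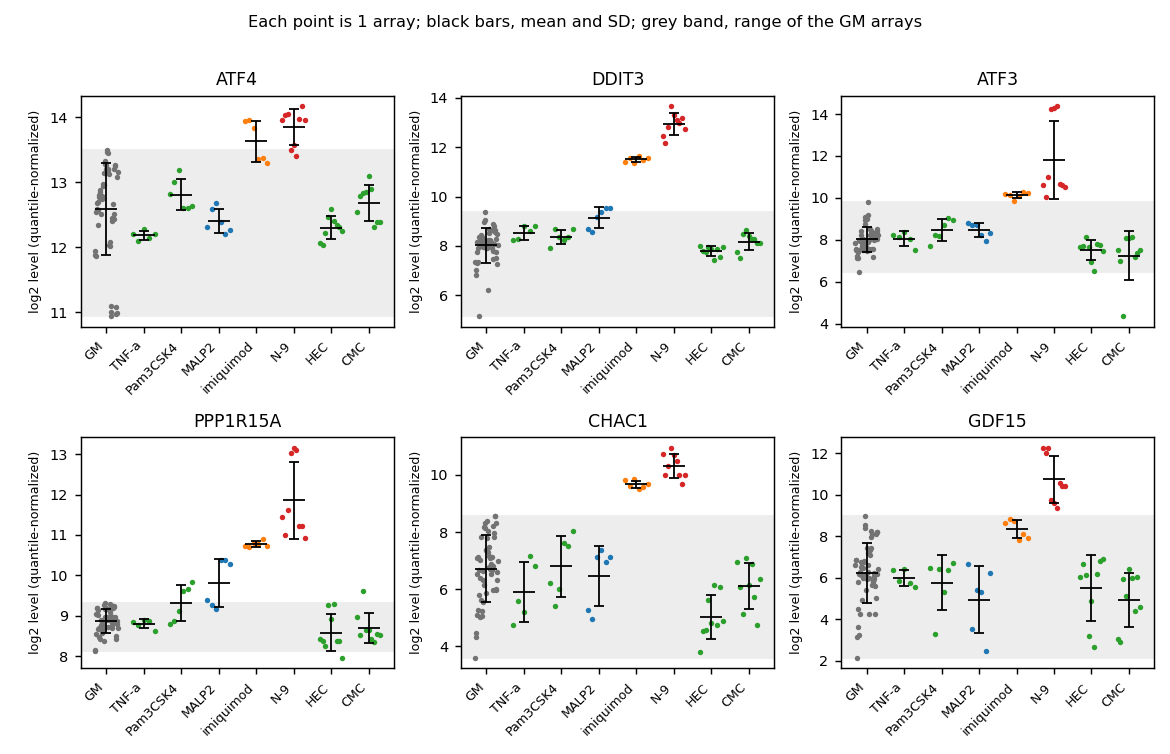
Log2 level of ATF4, DDIT3, ATF3, PPP1R15A, CHAC1 and GDF15 in every array (points) of the 8 groups, with the group mean and SD (bars) and the range of the GM arrays (band). DDIT3, ATF3, PPP1R15A and CHAC1 of all imiquimod and N-9 arrays lie above all 53 GM arrays, and 3 N-9 arrays stand apart for ATF3 and PPP1R15A.

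The genes that feed back on the response gave 5 of 6 calls with N-9 and 4 with imiquimod, where 17.4% and 10.9% of all probesets were called. PPP1R15A (GADD34), the subunit that leads a phosphatase to eIF2 and restores translation, lay at 8.14, 8.88 and 9.31 in GM, at 10.70, 10.75 and 10.91 with imiquimod and at 10.92, 11.46 and 13.16 with N-9. All treated arrays were above all GM arrays, and N-9 replicates 4 to 6 were again the highest, at 13.04, 13.16 and 13.12. The rise was 2.99 ± 0.16 with N-9 (adjusted p = 7.47e-31), or 2.37 without those 3 arrays, and 1.90 ± 0.19 with imiquimod (adjusted p = 4.47e-14).

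CHAC1, which breaks down glutathione, lay at 3.61, 6.78 and 8.58 in GM, at 9.51, 9.65 and 9.84 with imiquimod and at 9.67, 10.31 and 10.94 with N-9, with no overlap between GM and either compound. It rose by 3.59 ± 0.36 with N-9 (adjusted p = 8.98e-14) and by 2.95 ± 0.43 with imiquimod (adjusted p = 1.00e-07). Its only probeset had a mean level of 6.96 over the arrays, with 57.44% of all probesets below it. SESN2, a leucine sensor that restrains mTORC1, lay at 6.71, 8.39 and 9.23 in GM, at 9.44, 9.81 and 10.33 with imiquimod and at 9.95, 10.55 and 10.85 with N-9, again without overlap. Its rise was 2.16 ± 0.18 with N-9 (adjusted p = 1.64e-17) and 1.53 ± 0.22 with imiquimod (adjusted p = 4.32e-08).

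For TRIB3, a pseudokinase that holds back ATF4 and CHOP, the GM arrays lay at 11.16, 11.71 and 14.04, those with imiquimod at 12.95, 13.14 and 13.32 and those with N-9 at 11.81, 14.22 and 14.37. The groups overlapped: GM replicates 22 to 24 averaged 14.00, and N-9 replicates 4 to 6 lay between 11.81 and 12.25. TRIB3 rose by 1.59 ± 0.23 with N-9 (adjusted p = 4.95e-08) and by 1.18 ± 0.28 with imiquimod (adjusted p = 0.00118), and the latter was 1.04 without imiquimod replicates 4 to 6 (adjusted p = 0.0696). EIF4EBP1, a brake on cap-dependent translation, rose by 0.52 with N-9 (adjusted p = 0.00235), or 0.28 without N-9 replicates 1 to 3 (adjusted p = 0.26). DDIT4 (REDD1), another inhibitor of mTORC1, differed by −0.17 with N-9 and −1.13 with imiquimod, neither called.

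Of the genes for amino acid synthesis, 2 of 10 were called with N-9 and 3 of 10 with imiquimod, all higher, beside the 7.34% and 4.68% of all probesets called higher. CTH, which makes cysteine from cystathionine, lay at 6.28, 8.27 and 11.43 in GM, at 9.77, 10.52 and 11.08 with imiquimod and at 9.37, 11.19 and 11.52 with N-9. Both treated groups lay within the upper part of the wide GM range, with the top of N-9 just beyond it. CTH rose by 2.27 ± 0.40 with N-9 (adjusted p = 5.89e-06) and by 2.08 ± 0.48 with imiquimod (adjusted p = 0.000963), and the latter was 1.56 without imiquimod replicates 1 to 3 (adjusted p = 0.212). MTHFD2, of the mitochondrial folate cycle, rose by 0.61 with N-9 (adjusted p = 0.000121) and 0.92 with imiquimod (adjusted p = 1.82e-06), and SHMT2, which moves carbon from serine into that cycle, by 0.61 with imiquimod (adjusted p = 0.000877) but gave 0.30 with N-9 (adjusted p = 0.0587). Without imiquimod replicates 1 to 3 SHMT2 was at 0.28 and not called (adjusted p = 0.547). A second MTHFD2 probeset rose by 0.55 with N-9, also called, but gave 0.19 with imiquimod (adjusted p = 0.394).

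ASNS, asparagine synthetase and a classical ATF4 target, was not called. It lay at 10.02, 12.29 and 14.15 in GM, at 12.85, 13.50 and 14.17 with imiquimod and at 11.77, 13.85 and 13.95 with N-9, all overlapping. Its difference was 0.94 with N-9 (adjusted p = 0.145) and 1.23 with imiquimod (adjusted p = 0.143). PSAT1, PHGDH and PSPH, the 3 enzymes of serine synthesis, gave 0.16, 0.31 and 0.33 with N-9, none called.

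The transporters gave 3 of 6 calls with N-9 and 2 with imiquimod, where 17.4% and 10.9% of all probesets were called. SLC7A11, which imports cystine in exchange for glutamate, moved most. It lay at 8.74, 9.92 and 12.68 in GM, at 11.50, 11.56 and 11.69 with imiquimod and at 11.14, 12.25 and 12.76 with N-9. These ranges overlap the top of GM, where replicates 22 to 24 averaged 12.52. SLC7A11 rose by 2.10 ± 0.26 with N-9 (adjusted p = 5.20e-10) and by 1.52 ± 0.32 with imiquimod (adjusted p = 0.000191). SLC38A2, a carrier of small neutral amino acids, rose by 0.51 with N-9 (adjusted p = 6.77e-07) and by 0.45 with imiquimod (adjusted p = 0.000396), the latter 0.36 without replicates 4 to 6 (adjusted p = 0.0804). SLC3A2, the shared heavy chain of SLC7A11 and SLC7A5, rose by 0.27 with N-9 (adjusted p = 0.0444), a call lost when runs of 3 arrays were treated as a block (adjusted p = 0.133), without replicates 1 to 3 (adjusted p = 0.25) and without replicates 4 to 6 (adjusted p = 0.135), and SLC7A5, the carrier of large neutral amino acids, gave −0.04.

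The tRNA list, which holds cytosolic synthetases that charge tRNA and the tRNA exporter XPOT, gave 5 of 7 calls with N-9 and 3 with imiquimod. Of all probesets 17.4% and 10.9% were called. In the probesets used, all these changes stayed under a fold change of 2. With N-9, AARS rose by 0.80 (adjusted p = 4.42e-07), GARS by 0.54 (adjusted p = 0.000164), CARS by 0.51 (adjusted p = 0.0107), XPOT by 0.40 (adjusted p = 0.0115) and SARS by 0.31 (adjusted p = 0.00524). AARS kept its call without each N-9 run. Without replicates 7 to 9, GARS was at 0.31 (adjusted p = 0.0778), CARS at 0.27 (adjusted p = 0.308) and SARS at 0.11 (adjusted p = 0.451), none called. XPOT (0.12, adjusted p = 0.651) and CARS (0.46, adjusted p = 0.0806) were not called without replicates 1 to 3, nor was XPOT with runs as a block (adjusted p = 0.0731). With imiquimod, CARS rose by 0.80 (adjusted p = 0.000794), GARS by 0.52 (adjusted p = 0.0042) and SARS by 0.45 (adjusted p = 0.000736). Without imiquimod replicates 1 to 3 none of the 3 was called, with CARS at 0.46 (adjusted p = 0.387), GARS at 0.28 (adjusted p = 0.527) and SARS at 0.35 (adjusted p = 0.172). A second SARS probeset rose by 1.00 with both compounds. Other CARS probesets rose by 0.77, 0.85 and 1.13 with N-9 and by 0.90 and 0.98 with imiquimod, all called. One CARS probeset with imiquimod (0.41) and a second XPOT probeset with N-9 (0.15) were not called.

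Of the secreted and surface proteins, GDF15, a stress hormone of the TGF-β family, lay at 2.15, 6.30 and 8.97 in GM, at 7.85, 8.39 and 8.82 with imiquimod and at 9.39, 10.45 and 12.26 with N-9. All N-9 arrays were above all GM arrays, and no imiquimod array was. GDF15 rose by 4.50 ± 0.49 with N-9 (adjusted p = 1.89e-12) and by 2.09 ± 0.58 with imiquimod (adjusted p = 0.00806). The imiquimod value was 1.71 without replicates 1 to 3 (adjusted p = 0.292), and the call was lost with runs as a block (adjusted p = 0.0937). Its other probesets, which were dimmer than the one used, disagreed: they gave −0.14 and 0.85 with N-9 and 0.52 and 0.22 with imiquimod, none called. The one used was not bright itself, at a mean level of 6.47 with 50.52% of all probesets below it.

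STC2, a secreted glycoprotein that acts on calcium and phosphate, lay at 7.92, 8.83 and 10.84 in GM, at 10.61, 10.72 and 11.01 with imiquimod and at 9.28, 10.24 and 11.38 with N-9, overlapping GM in both. It rose by 1.88 ± 0.23 with imiquimod (adjusted p = 1.96e-10) and by 1.44 ± 0.19 with N-9 (adjusted p = 2.11e-09). VLDLR, a lipoprotein receptor, rose with imiquimod by 0.96 (adjusted p = 0.00131), or 0.73 without replicates 1 to 3 (adjusted p = 0.221), and gave 0.07 with N-9. ADM2, a peptide hormone, gave 0.56 with N-9 without a call.

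The members called with N-9 had 21 further probesets, in 15 genes, of which 20 changed in the same direction and 18 were called. With imiquimod there were 21 in 14 genes, all in the same direction and 14 called. Without N-9 replicates 1 to 3, 4 to 6 or 7 to 9, the N-9 count was 19, 27 or 22, and without imiquimod replicates 1 to 3 or 4 to 6 the imiquimod count was 12 or 19.

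Set directly against each other, N-9 gave higher levels than imiquimod in 6 members and lower levels in 1, where 10.8% of all probesets were called, 5.2% higher and 5.56% lower. With a fold change over 2 required as well 4 were called, against 4.89%. N-9 was higher by 1.42 for DDIT3 (95% interval 0.84 to 2.00, adjusted p = 0.000289), by 1.09 for PPP1R15A (0.64 to 1.54, adjusted p = 0.000328), by 1.68 for ATF3 (0.85 to 2.51, adjusted p = 0.00336) and by 2.40 for GDF15 (0.99 to 3.81, adjusted p = 0.0163). AARS was higher by 0.57 (adjusted p = 0.0319) and SLC3A2 by 0.44 (adjusted p = 0.0315), and VLDLR was lower with N-9, at −0.90 (−1.45 to −0.34, adjusted p = 0.0227). For ATF4 the difference was 0.22 (−0.35 to 0.79, adjusted p = 0.699) and for CHAC1 0.64 (−0.41 to 1.69, adjusted p = 0.496), so that neither difference was resolved. The doses of the compounds differed.

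Of these 7 members, DDIT3 alone kept its call whichever of the 5 runs was left out. Without N-9 replicates 4 to 6 ATF3 differed by 0.45 (adjusted p = 0.49) and PPP1R15A by 0.47 (adjusted p = 0.133), and DDIT3 kept its call at 1.21 (adjusted p = 0.00871). GDF15 was called without N-9 replicates 4 to 6, at 2.99 (adjusted p = 0.00738), or 7 to 9, but not without N-9 replicates 1 to 3 (1.69, adjusted p = 0.15), imiquimod replicates 1 to 3 (2.79, adjusted p = 0.0541) or imiquimod replicates 4 to 6 (2.01, adjusted p = 0.162). As the mean of all its probesets GDF15 differed by 0.79 (adjusted p = 0.161). ATF3 was at 1.61 without imiquimod replicates 1 to 3 (adjusted p = 0.0607). SLC3A2, AARS and VLDLR each lost their calls without at least 3 of the 5 runs.

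With runs as a block ATF3 (adjusted p = 0.0329), DDIT3 (adjusted p = 0.0299) and PPP1R15A (adjusted p = 0.00483) stayed called. GDF15 (adjusted p = 0.151), AARS (adjusted p = 0.121), SLC3A2 (adjusted p = 0.133) and VLDLR (adjusted p = 0.0806) did not. The count of 7 members was 2 without imiquimod replicates 1 to 3 and 4 without N-9 replicates 1 to 3.

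**Figure D3:**
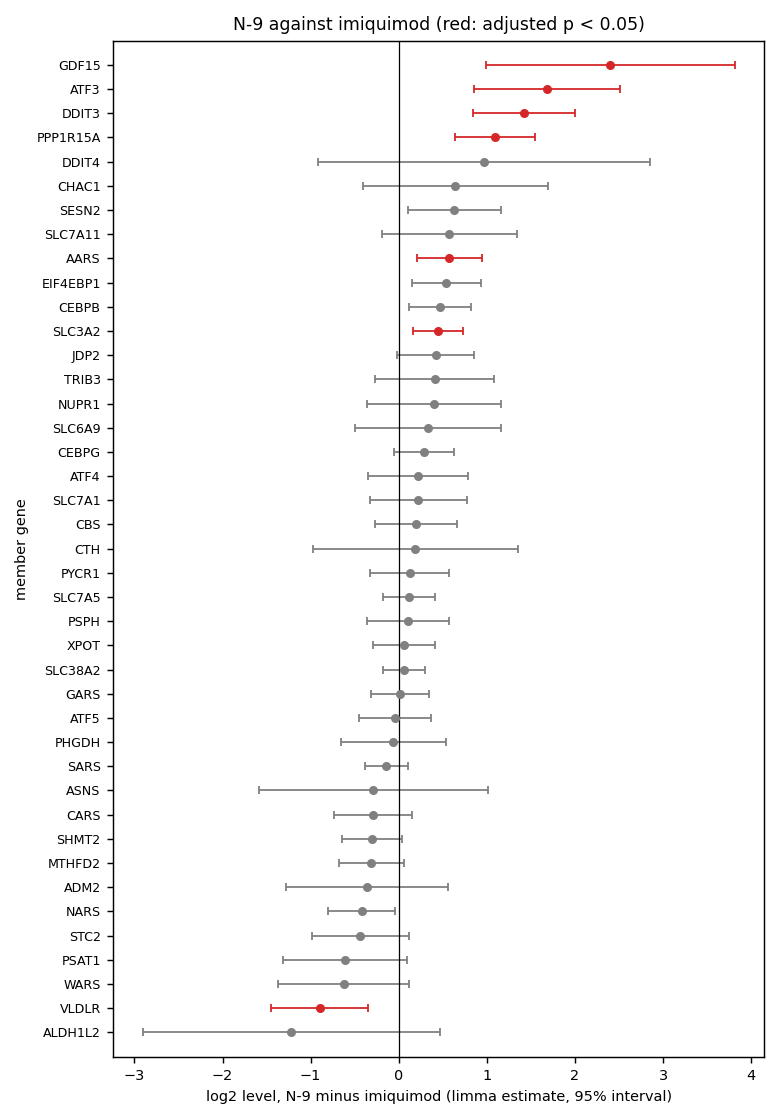
Log2 difference of N-9 minus imiquimod (points) with its 95% interval (lines) for the 41 members, ordered by the size of the difference. Among the called members, the intervals of DDIT3, PPP1R15A, ATF3, GDF15, AARS and SLC3A2 lie above 0 and that of VLDLR below 0. The intervals are not adjusted for the number of probesets tested, so those of uncalled members can also leave out 0. That of ATF4 runs from −0.35 to 0.79.

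With MALP2, more members fell than rose. MALP2 called 11 of 41 members (26.8%), 2 higher and 9 lower, where 6.95% of all probesets were called, 3.28% higher and 3.68% lower, or 12.1% among the probesets brighter than the median. With a fold change over 2 as well, 2 members were called, against 2.2%. The median difference over the members was −0.34. DDIT3 and PPP1R15A rose, and JDP2, EIF4EBP1, PYCR1, SLC7A11, SLC7A5, SLC3A2, SLC38A2, AARS and XPOT fell.

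Of the transporters 4 of 6 were called, all lower, where 3.68% of all probesets were called lower. SLC7A11 lay at 8.20, 8.50 and 8.64 with MALP2, below all 53 GM arrays, and it was the only member with such a separation, where 0.0787% of all probesets had it. It fell by 1.58 ± 0.32 (adjusted p = 0.000177). Against GM replicates 1 to 9 alone the difference was −0.71 (adjusted p = 0.0331), and with the replicate number as a block as well it was −0.63 and not called (adjusted p = 0.0701). A second SLC7A11 probeset fell by 1.36 (adjusted p = 0.00145), and another gave −0.19 (adjusted p = 0.707).

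SLC7A5 lay at 12.85, 13.20 and 13.51 with MALP2 against 13.39, 13.96 and 14.44 in GM, and 5 of 6 arrays were below every GM array. It fell by 0.75 ± 0.12 (adjusted p = 3.09e-06). SLC3A2, which forms a heterodimer with each of the former carriers, lay at 11.21, 11.58 and 11.73 against 11.46, 12.26 and 12.80, with 2 of 6 arrays below GM, and fell by 0.70 ± 0.12 (adjusted p = 6.82e-06). SLC38A2 lay at 12.98, 13.13 and 13.33 against 13.20, 13.69 and 14.20, with 5 of 6 arrays below GM, and the fall of 0.57 ± 0.10 had an adjusted p of 1.12e-05. All 4 transporters kept their calls without replicates 1 to 3, without replicates 4 to 6 and with runs as a block.

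**Figure D4:**
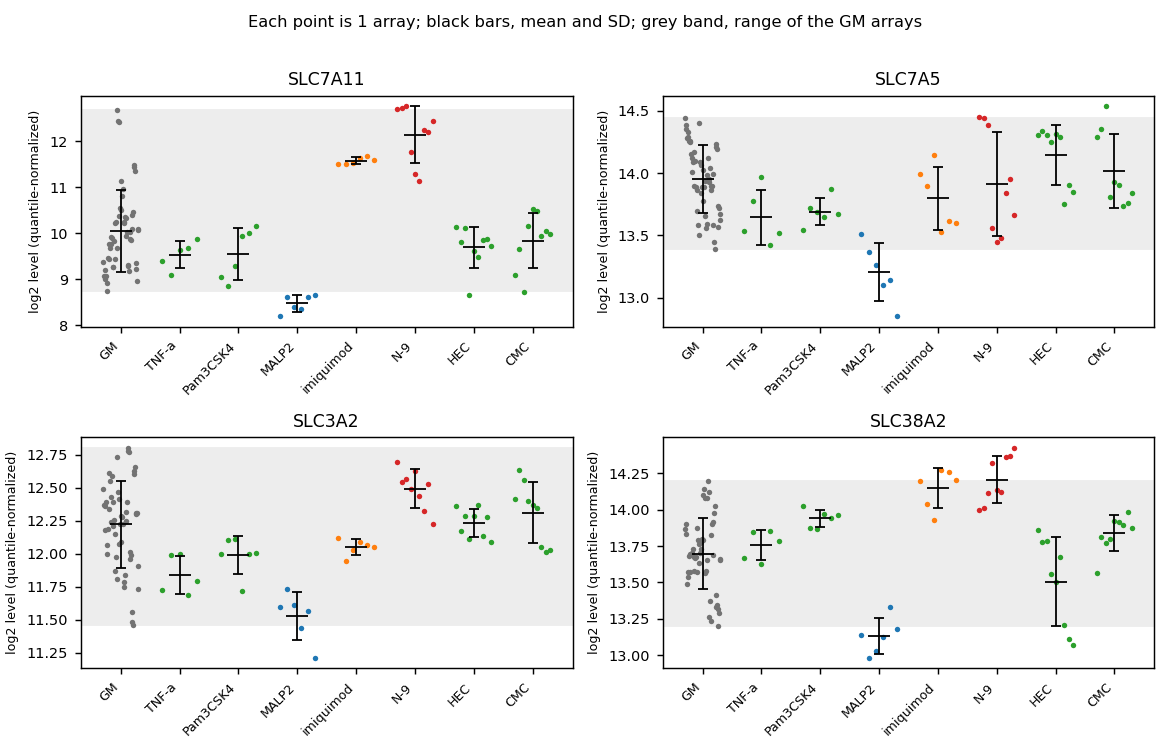
Log2 level of SLC7A11, SLC7A5, SLC3A2 and SLC38A2 in every array (points) of the 8 groups, with the group mean and SD (bars) and the range of the GM arrays (band). The 6 MALP2 arrays of SLC7A11 lie between 8.20 and 8.64, below the lowest GM array at 8.74, while the imiquimod and N-9 arrays lie at 11.14 or above.

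EIF4EBP1 lay at 9.65, 10.01 and 10.84 with MALP2 against 10.12, 10.79 and 11.77 in GM, and only replicates 4 to 6 were below every GM array. It fell by 0.67 ± 0.16 (adjusted p = 0.00259), and without replicates 4 to 6 it gave −0.22 and was not called (adjusted p = 0.709). The falls of JDP2 (−0.65, adjusted p = 0.0121), PYCR1, the last enzyme of proline synthesis (−0.56, adjusted p = 0.0454), AARS (−0.53, adjusted p = 0.0156) and XPOT (−0.48, adjusted p = 0.0234) were not called with runs as a block, and none of the 4 was called without replicates 4 to 6, where PYCR1 gave 0.06 (adjusted p = 0.94) and JDP2 −0.38 (adjusted p = 0.519). AARS (adjusted p = 0.0822) and XPOT (adjusted p = 0.166) were not called without replicates 1 to 3 either, nor PYCR1 without GM replicates 22 to 24 (adjusted p = 0.0585).

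DDIT3 lay at 8.59, 9.28 and 9.55 with MALP2, with 2 of 6 arrays above every GM array, and rose by 1.13 ± 0.24 (adjusted p = 0.000487). PPP1R15A lay at 9.17, 9.83 and 10.38, with 4 of 6 above, and rose by 0.95 ± 0.19 (adjusted p = 0.000131). Both rises were smaller without replicates 4 to 6, at 0.79 (adjusted p = 0.2) and 0.41 (adjusted p = 0.459), and neither was then called. ATF4 itself lay at 12.21, 12.35 and 12.68 with MALP2, within the GM range, and differed by −0.18 (adjusted p = 0.762).

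Imiquimod and MALP2, compared directly, differed in 22 members, all higher with imiquimod, where 2.04% of all probesets were called and 0.98% were higher. That count was 11 with runs as a block and 9 with all 105 arrays. N-9 minus MALP2 gave 28 members higher and 1, ATF5, lower, where 13.1% of all probesets were called and 6.13% were higher. N-9 was also higher than Pam3CSK4 in 23 members, where 11.3% of all probesets were called and 5.03% were higher. It was higher than TNF-α in 22 (7.77% called, 3.3% higher) and than HEC in 21 (8.6% called, 3.79% higher), with no member lower. GDF15, CHAC1 and DDIT3 gave the 3 largest of these N-9 differences against each of the 4 groups. With a fold change over 2 as well, 13 members were called between imiquimod and MALP2, where 1.01% of all probesets were, and 19, 14 and 13 between N-9 and MALP2, Pam3CSK4 and HEC, where 5.88%, 4.97% and 2.9% were.

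TNF-α, Pam3CSK4 and CMC gave 0 calls among the 41 members in limma. At an unadjusted p under 0.05 there were 6 members with TNF-α, 8 with Pam3CSK4 and 9 with CMC. Of the 54613 probesets tested, 4524, 6681 and 3899 passed that limit with these compounds. The lowest adjusted p over the members was 0.185, 0.139 and 0.411. Of all probesets 0.72% were called with TNF-α, 2.17% with Pam3CSK4 and 0.00183% with CMC. The median differences over the members were −0.12, −0.14 and −0.14. Against GM replicates 1 to 9 alone, TNF-α gave 6 calls, Pam3CSK4 8 and CMC 1.

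ATF4 lay within the GM range in each of these groups. The 5 TNF-α arrays were at 12.20, 12.10, 12.28, 12.13 and 12.20, all below the GM median, and differed from GM by −0.41 (adjusted p = 0.735). With Pam3CSK4 ATF4 lay at 12.60, 12.73 and 13.18 and differed by 0.22 (adjusted p = 0.790), and with CMC at 12.32, 12.79 and 13.10, a difference of 0.09 (adjusted p = 0.945). With the lipopeptides, whose doses differ, DDIT3 gave 0.36 for Pam3CSK4 (adjusted p = 0.600) beside the 1.13 for MALP2, and SLC7A11 −0.50 (adjusted p = 0.560) beside −1.58.

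HEC gave 1 call, a lower one, where 0.793% of all probesets were called and 0.465% were lower. CHAC1 lay at 3.80, 4.84 and 6.15 with HEC, all below the GM median of 6.78 and within the GM range, and fell by 1.69 ± 0.36 (adjusted p = 0.0144). The call was lost without replicate 1 (−1.54, adjusted p = 0.0507), without replicates 1 to 3 (−1.33, adjusted p = 0.0972) and with runs as a block (adjusted p = 0.385). Against GM replicates 1 to 9 alone CHAC1 differed by −0.45 (adjusted p = 0.85), and GM replicates 1 to 3 had the lowest CHAC1 mean of all GM runs, 4.14. ATF4 lay at 12.04, 12.32 and 12.58 with HEC and differed by −0.29 (adjusted p = 0.483). The 2 cellulose ethers, at the same dose, gave 0 calls between them in limma, where 0% of all probesets were called. At an unadjusted p under 0.05 there were 5 members, beside 3877 of the 54613 probesets. The lowest adjusted p over the members was 0.359. HEC minus CMC was −0.38 for ATF4 (95% interval −0.89 to 0.13) and −1.09 for CHAC1 (−2.03 to −0.15, adjusted p = 0.639).

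Some members varied widely without any treatment. Consecutive GM replicate numbers in groups of 3, called runs here, resembled each other, although the labels do not say that such arrays belong together. The SD of the GM run means exceeded the spread within runs for 40 of 41 members, with a median ratio of 4.57. Run means reached from 9.08 to 14.52 for DDIT4, from 3.71 to 8.63 for GDF15 and from 4.93 to 9.53 for ALDH1L2. For CTH they reached from 6.55 to 11.09, for CHAC1 from 4.14 to 8.48 and for ASNS from 10.16 to 14.11. Those of PSAT1 reached from 11.69 to 14.09 and those of ATF4 from 11.01 to 13.47. ADM2 was the exception, at a ratio of 0.92.

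GM replicates 22 to 24 stood apart in many members. The share of all probesets with such a separation was not determined, so it is not known whether it is particular to these genes. All 3 arrays lay above the 50 other GM arrays in 18 members, among them ASNS (14.11 against a median of 12.25 in the other GM arrays), CTH (11.09 against 8.24), GDF15 (8.63 against 6.21), STC2 (10.71 against 8.78) and DDIT3 (9.15 against 8.09). DDIT4 went the other way, at 9.08 against 13.91. Without these 3 arrays 25 members were called with N-9, 22 with imiquimod and 10 with MALP2.

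The same genes split the treated groups by run. ASNS averaged 13.64 in MALP2 replicates 1 to 3 and 9.72 in replicates 4 to 6, 14.14 and 12.87 in those of imiquimod, and 13.88, 11.89 and 13.87 in replicates 1 to 3, 4 to 6 and 7 to 9 of N-9. DDIT4 averaged 9.50 and 14.09 in the imiquimod runs and 14.40, 14.57 and 9.31 in those of N-9. PSAT1 averaged 13.81, 11.87 and 13.68 in the N-9 runs, so that its replicates 4 to 6 were the low ones there too.

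**Figure D5:**
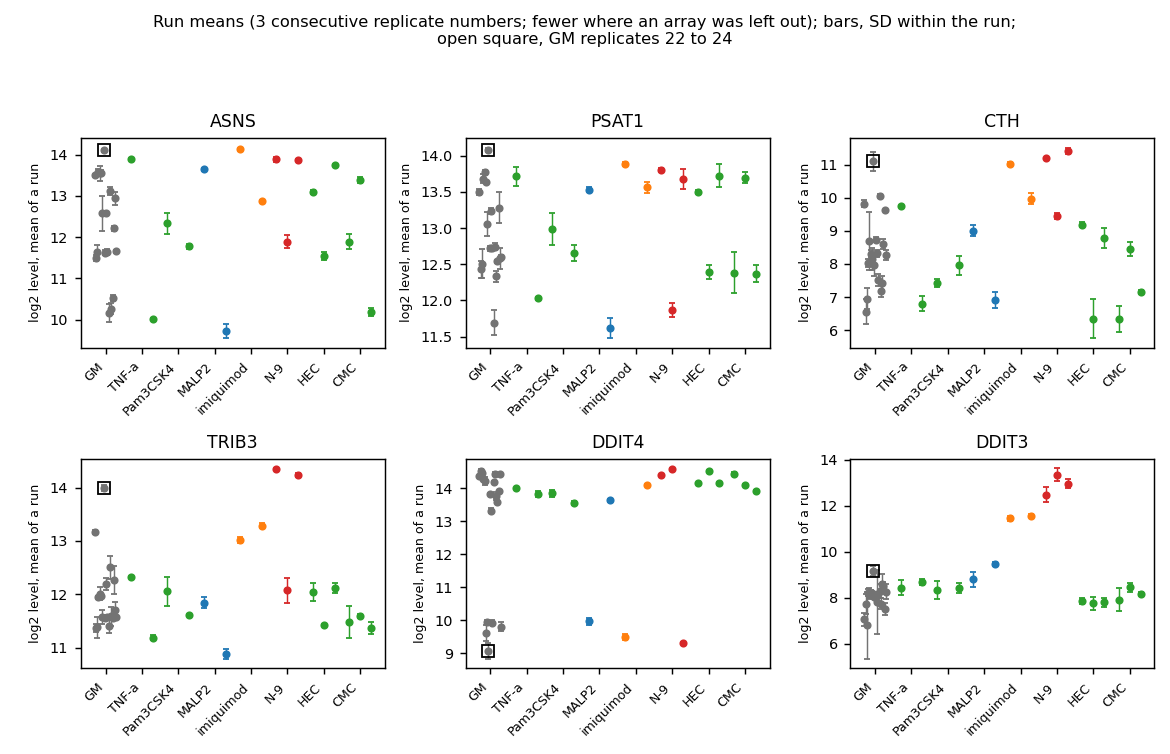
Mean log2 level of ASNS, PSAT1, CTH, TRIB3, DDIT4 and DDIT3 in each run of 3 consecutive replicate numbers (points) for the 8 groups, with GM replicates 22 to 24 as an open square. ASNS, CTH and DDIT4 spread over more than 3 units among GM runs. All runs of DDIT3 with imiquimod and N-9 lie above all GM runs.

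Genes linked to ER stress outside the module also moved with N-9 and imiquimod. Which signal lies behind the changes was not tested. Of 12 genes of the ATF6 and XBP1 branches, which raise chaperones and degradation, imiquimod raised all 12 (median 1.26) and N-9 raised 10 (median 1.01), with none lower. Of all probesets 4.68% and 7.34% were called higher with imiquimod and N-9. HERPUD1, which helps to clear misfolded proteins, rose by 3.05 with imiquimod and 3.57 with N-9, and SDF2L1 by 2.53 and 1.84. With imiquimod DNAJC3, an ER co-chaperone that restrains the kinase PERK, rose by 1.68 and SEL1L by 1.65. With N-9 the chaperone HSP90B1 rose by 1.82 and XBP1, the factor of its branch, by 1.40. MALP2 raised 4, HERPUD1 by 1.59, SDF2L1 by 0.83, DNAJC3 by 0.65 and XBP1 by 0.55, and Pam3CSK4 raised HERPUD1 by 0.88 and XBP1 by 0.63. With MALP2 and Pam3CSK4, 3.28% and 1.31% of all probesets were called higher.

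Of 15 genes of the eIF2 kinases and the eIF2 machinery, N-9, imiquimod and MALP2 each gave 2 higher and 2 lower, beside the 17.4%, 10.9% and 6.95% of all probesets called. EIF2AK3, which encodes PERK, rose by 0.66 with N-9, by 1.71 with imiquimod and by 0.71 with MALP2. EIF2S2, a subunit of eIF2, rose by 0.18 with N-9 and 0.29 with imiquimod, and EIF2AK2, the kinase PKR, by 0.72 with MALP2. EIF2B1, a subunit of the exchange factor of eIF2, fell by 0.47, 0.73 and 0.39 with N-9, imiquimod and MALP2. DELE1, which relays mitochondrial stress, fell by 0.59 with N-9 and 1.10 with imiquimod, and EIF2AK4, the kinase GCN2, fell by 0.64 with MALP2.

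Related genes outside the module moved in both directions. Of all probesets, 7.34% were called higher and 10.1% lower with N-9, and 4.68% and 6.19% with imiquimod. With MALP2 the shares were 3.28% and 3.68%. Of 11 other cytosolic synthetases, N-9 raised EPRS by 0.87, LARS by 0.56 and TARS, while RARS fell by 1.06 and HARS fell by 0.48. Imiquimod raised 2 and lowered FARSA, which fell by 0.67, and MALP2 lowered 3, EPRS (−0.82), FARSA (−0.67) and YARS (−0.55). Of 15 mitochondrial synthetases 4 fell under N-9 and 4 under imiquimod, with none higher, and MALP2 gave 1 higher and 2 lower.

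Among 14 other amino acid genes N-9 raised 3 and lowered 3, with GOT1, of aspartate metabolism, up by 1.17, BCAT1, of branched-chain amino acids, up by 0.72, PYCRL at −2.44 and SLC7A6 at −0.90. Imiquimod raised 3 and lowered 2. Of all probesets 17.4% were called with N-9, 10.9% with imiquimod, 6.95% with MALP2 and 2.17% with Pam3CSK4. MALP2 lowered 6 and raised none, with PYCRL at −1.88, the glutamine carrier SLC1A5 at −1.27, GCLM, of glutathione synthesis, at −0.72 and SLC1A4 at −0.65. Pam3CSK4 lowered BCAT1 alone, at −0.92.

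Of 11 other reported ATF4 or CHOP targets, N-9 raised 7 and lowered 1, and imiquimod raised 4. Of all probesets 7.34% and 4.68% were called higher with these compounds. VEGFA, the vascular growth factor, rose by 2.17 with N-9 and 1.86 with imiquimod, SQSTM1, an autophagy receptor, by 1.87 with N-9, and KDM7A, a histone demethylase, by 0.94 and 3.09. TXNIP, which inhibits thioredoxin, fell by 1.47 with N-9. MALP2 raised KDM7A by 1.77 and NDRG1 by 1.39, while SQSTM1 fell by 0.73, TNF-α raised KDM7A by 1.35, and HEC raised KLHL24 by 0.71.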

How the data were processed

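RNA of Vk2/E6E7 cells was hybridised to Affymetrix U133 Plus 2.0 arrays. The deposited log2 values, 1 per probeset and array, were made by the authors. MAS5 and GCOS 1.3 stand in the submitters' processing notes, the methods describe RMA, and the values have the MAS5 form, in which dim probesets are noisy. They were quantile normalized here, and 54613 probesets (62 control probesets left out) were fitted over 103 arrays with limma 3.58.1 in R 4.3.3, 1 mean per group and Benjamini-Hochberg adjustment over all probesets. TNF-α replicate 6 and GM replicate 52 were left out. The platform annotation gave the names: 41097 probesets have 1 gene, 1801 several and 11777 are not listed. The steps were tested on simulated data in which all arrays were independent. That test therefore does not cover the likeness of arrays within runs, whose correlation was 0.438. The number of arrays limits the precision.

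The members and lists were chosen with earlier results of these data known. All members could be named, with levels in full for ATF4, for at most 12 called members of N-9 and imiquimod and at most 6 of the others, those with the largest differences, and of each related list the 4 called genes with the largest differences; levels of ASNS were added after its values were seen. Alternatives were other normalizations, filters, probesets, controls, blocks, a fold limit, the methods' analysis of variance and arrays left out. Leaving out runs, or GM replicates 22 to 24, was chosen after seeing the data.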

Additional observations from a re-analysis of the deposited data

Results flagged for a closer look

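Within groups of 4 to 10 arrays, 287 sets of levels were examined for a single array far from the rest, and 10 had one, where chance alone gives about 1 in 20 groups. CMC replicate 3 accounts for 4 of the 10: it was the lowest of 9 for ATF3 (4.38, next 7.01), PSPH (9.54, next 11.15) and XPOT (11.01, next 12.51) and the highest for PPP1R15A (9.61, next 8.97). SESN2 was lowest in MALP2 replicate 4 (6.00, next 7.62) and AARS in MALP2 replicate 6 (10.39, next 10.76). In Pam3CSK4, PSPH was lowest in replicate 6 (11.46, next 11.75) and SLC3A2 in replicate 4 (11.72, next 12.00). SLC7A11 was lowest in HEC replicate 4 (8.65, next 9.48) and SLC6A9 in N-9 replicate 7 (3.82, next 5.77).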

How the results depend on the processing

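The counts below are members called, beside 11 for MALP2, 19 for imiquimod, 24 for N-9, 1 for HEC, 7 for N-9 minus imiquimod, 29 for N-9 minus MALP2, 23 for N-9 minus Pam3CSK4, 22 for N-9 minus TNF-α, 21 for N-9 minus HEC and 22 for imiquimod minus MALP2. A fold over 2 as well left 2 for MALP2, 12 for imiquimod, 13 for N-9, 4 for N-9 minus imiquimod, 19, 14 and 13 for N-9 minus MALP2, Pam3CSK4 and HEC, and 13 for imiquimod minus MALP2. The methods' analysis of variance with that limit gave 3 for MALP2, 12, 13 and 2 for imiquimod, N-9 and CMC. Runs as a random block gave 7 for MALP2, 0 for HEC, 3 for N-9 minus imiquimod and 11 for imiquimod minus MALP2. With all 105 arrays the counts were 3 for MALP2, 4 for N-9 minus imiquimod, 18, 15 and 14 for N-9 minus MALP2, Pam3CSK4 and TNF-α, and 9 for imiquimod minus MALP2. The mean of all probesets gave 1 for TNF-α, and HEC replicates 7 to 9 only gave 1 for HEC minus CMC. Without MALP2 replicates 4 to 6 there were 7 for MALP2, and PYCR1 with MALP2 reversed to 0.0648. Without imiquimod replicates 1 to 3 there were 12 for imiquimod and 2 for N-9 minus imiquimod, without N-9 replicates 1 to 3 there were 4 for the latter, and without HEC replicates 1 to 3, or replicate 1, there were 0 for HEC. The cause was not tested.

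Leaving out single arrays gave 22 to 25 for N-9, 19 to 20 for imiquimod, 8 to 12 for MALP2, 0 to 1 for HEC, 0 for TNF-α, Pam3CSK4, CMC and HEC minus CMC, 5 to 7 for N-9 minus imiquimod, 26 to 28 for N-9 minus MALP2, 22 to 24 for N-9 minus Pam3CSK4, 20 to 23 for N-9 minus TNF-α, 19 to 22 for N-9 minus HEC and 16 to 24 for imiquimod minus MALP2.

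Of 50 pairs of a treated and a GM array with the same number, 12 correlated above 0.1, all of them in replicates 1 to 6 of HEC and N-9 (0.25 to 0.342), so the numbers do not pair the arrays throughout, though these arrays share deviations. Against GM replicates 1 to 9 the counts were 6 for TNF-α, 8 for Pam3CSK4, 0 for HEC and 1 for CMC without the replicate block. With it they were 8, 11, 0 and 3. The shares of all probesets called in these fits were not determined. Signals over background were not used here, and the number of arrays sets the precision.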
